A study of Bos indicus and Bos indicus x Bos taurus and Bos taurus with 6 samples.

Results

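Brangus blood was compared with Holstein Friesian blood across the transcriptome, using the raw read counts of 4 libraries, 2 per breed, out of 6 libraries in the series. Brangus is a composite of Bos indicus and Bos taurus ancestry that the labels rank as intermediate in heat tolerance. They rank Holstein Friesian, a dairy breed of Bos taurus origin, as vulnerable. The other 2 libraries came from Kedah-Kelantan, a heat-tolerant Bos indicus breed, and entered the fit only to help estimate the spread. Every cow was a healthy adult, neither pregnant nor in milk, the animals averaged 4.5 ± 1.2 years of age and 450 ± 15 kg in body weight, and all blood was drawn from the jugular vein under heat load at a temperature-humidity index of 44.68. No unstressed animals were analysed here, so the comparison is between breeds within heat stress and not between heat loads. The series' design text gives 4 animals for each breed, while each has only 2 libraries, labelled biological replicates 1 and 2. Whether a library is 1 animal or a pool is not stated in the sources used here, so p-values measure only the spread between these libraries. A gene was described as higher or lower in Brangus when both of its Brangus libraries lay on the same side of both Holstein Friesian libraries, which are called separated values below. Of 21698 genes in the table, 13455 had enough counts to be tested, and 4617 of those (34.3%) were separated. If the 4 libraries were interchangeable, a share of about 0.333 would be expected to be separated. Separation alone is therefore a description and not a test.

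Whole blood holds red cells and platelets, which have no nucleus but carry RNA from their precursors, and white cells that transcribe actively. Granulocytes and monocytes provide innate defence, T and natural killer cells kill infected cells, and B cells make antibody. A level in bulk blood reflects both how many cells of a type are present and how much RNA each holds. Fewer cells of a type and less RNA per cell cannot be told apart in these data.

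Library totals were 25275377 and 25465718 counts in Brangus and 28668857 and 28102745 for Holstein Friesian. The Holstein Friesian replicates differed from each other more than the Brangus replicates did. Over 10548 genes with a mean count of at least 100, the median absolute log2 difference between replicates was 0.20 in Brangus and 0.52 in Holstein Friesian, and 444 and 2675 genes differed more than 2-fold. Summed B cell marker levels, in CPM scaled by the trimmed mean of M values (TMM), the unit of library-scaled levels used below, were 4640 in Holstein Friesian replicate 1 and 506 in replicate 2, while summed monocyte markers were 1157 and 9785. Brangus lay between them for monocytes, at 1919 and 2046 CPM. List medians below are therefore also given from fits that leave out Holstein Friesian replicate 1 or replicate 2, in that order. Those fits assume that the lone library varies like the other breeds. The median replicate difference was 0.20 in Brangus and 0.14 in Kedah-Kelantan but 0.52 in Holstein Friesian. These fits may therefore understate the Holstein Friesian spread.

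With edgeR's quasi-likelihood test, 1 gene (0.00743% of those tested) was higher in Brangus at a Benjamini-Hochberg adjusted p under 0.05 and 0 (0.00%) were lower. At an unadjusted p under 0.05 there were 535 higher and 490 lower genes, and DESeq2 called 148 higher (1.10%) and 165 lower (1.23%). On simulated counts DESeq2 called 114 unchanged genes against 10 for edgeR, which limits what its calls here and below can show. The simulation gave each gene the same spread in every breed, unlike these libraries, so its error counts may not carry over. Separated genes numbered 2480 higher (18.4%) and 2137 lower (15.9%), and 623 (4.63%) and 622 (4.62%) of them also differed at least 2-fold. The median log2 fold change over all genes tested was -0.03. Without Holstein Friesian replicate 1, 4385 genes passed, and without replicate 2, 847 passed, among the 13905 genes tested in both fits. Only 174 passed in the same direction both times, 112 higher (0.805%) and 62 lower (0.446%), and 409 passed in opposite directions. These 174 are called concordant below. Both fits share the Brangus libraries, so they are not independent of each other. Concordance draws on the same libraries as separation and is a description, not a second test.

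LOC539009 (chromosome 8, 71366038 to 71367420, minus strand), annotated as encoding RagA, was the gene that passed. Its product's family, the Rag GTPases, recruits the growth regulator mTORC1 to the lysosome when amino acids are plentiful. It had 45.9 and 40.04 CPM in Brangus and 0.168 and 0.342 in Holstein Friesian, from 1072, 932, 5 and 9 counts. The breeds did not overlap, and Kedah-Kelantan, at 41.5 and 47.5, was close to Brangus. LOC539009 rose by 7.39 on the log2 scale (SE 0.38, edgeR adjusted p = 0.0468), with means of 43.0 ± 4.14 and 0.255 ± 0.123 CPM (SD, n = 2 each). The call lay close to the threshold and was lost with only the 4 libraries of these breeds in the fit (adjusted p = 0.742), while DESeq2 gave an adjusted p of 7.15e-52.

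RRAGA (chromosome 8, 25185781 to 25187367, minus strand), the named gene for the same GTPase, was separated in the opposite direction. It had 42.2 and 38.1 CPM in Brangus against 89.2 and 88.0 in Holstein Friesian, which is -1.14 on the log2 scale (SE 0.17, edgeR adjusted p = 0.452), and it was concordant. A further gene with this description, LOC614531, had at most 0.859 CPM in these 4 libraries. The sum of the 3 genes was 88.6 and 79.0 CPM for Brangus against 89.4 and 88.6 for Holstein Friesian, so the breeds overlapped once the copies were added up. Whether reads were split between these copies by the authors' counting was not tested, and the level of either copy alone is uncertain.

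**Figure D1:**
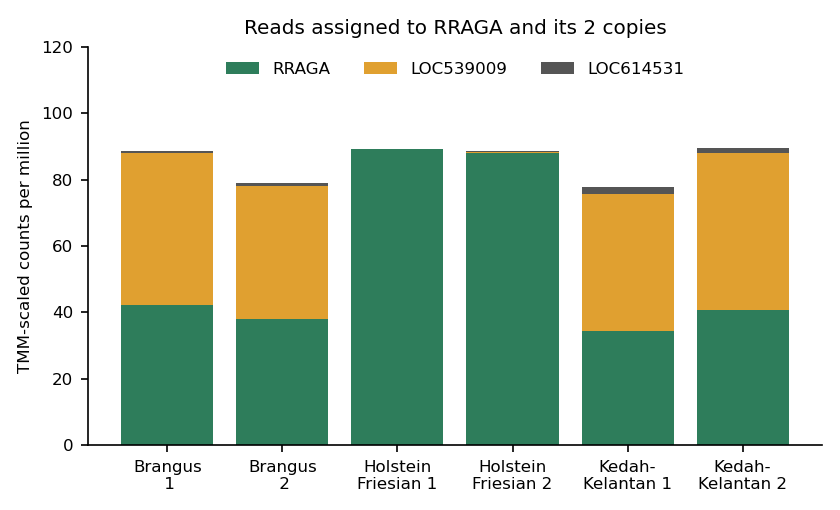
Stacked bars give the TMM-scaled CPM assigned to RRAGA, LOC539009 and LOC614531 in each of the 6 libraries. LOC539009 takes 45.9 and 40.04 CPM in Brangus and 0.168 and 0.342 in Holstein Friesian, while the total height stays between 77.7 and 89.7 in all libraries.

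Of the 28 tested genes of the Rag, Ragulator and mTORC1 list, 4 were separated higher and 4 lower, LOC539009 and RRAGA included. Both shares were below those over all genes tested (18.4% higher and 15.9% lower). The median log2 fold change was 0.03 (-0.07 and 0.02 with replicates 1 and 2 left out). LAMTOR4 and LAMTOR5, which anchor the Rag proteins on the lysosome, had log2 fold changes of 0.30 (SE 0.17) and 0.47 (SE 0.23). TSC1 and TSC2, which together restrain mTORC1, had -0.37 (SE 0.19) and -0.35 (SE 0.22). None of these passed, with edgeR adjusted p-values of 0.666, 0.659, 0.665 and 0.675.

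Platelet markers were mostly separated higher, by more than 2-fold at the median. Of 18 listed markers, 15 were tested, 12 were separated higher and 0 lower, with a median log2 fold change of 1.54 (1.303 with Holstein Friesian replicate 1 left out and 1.95 with replicate 2 left out). None passed edgeR's test, 6 were called by DESeq2, and 7 were among the concordant genes. Over all genes tested, 18.4% were separated higher and DESeq2 called 1.10% higher, and 0.805% of genes tested in both fits were concordant and higher. The summed level of the markers was 2148 and 2478 CPM in Brangus and 580 and 849 in Holstein Friesian. Kedah-Kelantan, at 554 and 656, was on the Holstein Friesian side.

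PPBP (chromosome 6, 88915411 to 88917013), a chemokine released from platelet granules, had 101 and 158 CPM in Brangus and 17.5 and 19.1 in Holstein Friesian, or 2.83 on the log2 scale (SE 0.27, edgeR adjusted p = 0.302). Its neighbour PF4, platelet factor 4, had 708 and 687 CPM against 258 and 276, or 1.39 (SE 0.20, adjusted p = 0.452). GNG11, a G protein subunit abundant in platelets, had 602 and 785 CPM against 72.5 and 150.5, or 2.64 (SE 0.40, adjusted p = 0.452). In each of the 3 genes the lowest Brangus library was well above the highest Holstein Friesian library. ITGB3, the beta chain of the fibrinogen receptor, had 269 and 352 CPM against 76.7 and 117, or 1.68 (SE 0.28). TUBB1, the tubulin of the platelet's marginal band, had 170.2 and 167 CPM against 56.6 and 75.3, or 1.35 (SE 0.19). MPIG6B, an inhibitory receptor of megakaryocytes, had 177 and 199 CPM against 53.5 and 75.7, or 1.54 (SE 0.25), and TREML1, a granule-membrane receptor, completed the 7 concordant markers at 2.39 (SE 0.89).

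The platelet glycoproteins GP5, GP6 and GP9, the adhesion molecule SELP and von Willebrand factor (VWF) were also separated higher, with log2 fold changes of 1.015 to 1.81, but they were not concordant. The exceptions were ITGA2B, THBS1 and PDGFB. ITGA2B, the alpha chain that pairs with ITGB3, had 18.6 and 25.1 CPM in Brangus against 6.84 and 53.8 in Holstein Friesian. THBS1 (14.0 and 7.91 against 3.59 and 33.0 CPM) overlapped in the same way, and PDGFB, at 11.7 and 16.6 CPM in Brangus, had Holstein Friesian replicate 1 above and replicate 2 below, at 4.49. Among the concordant genes outside the list, and chosen after their values were seen, MYL9, a myosin light chain, had 291 and 308 CPM in Brangus against 97.9 and 124, and CLU, a secreted chaperone, had 55.5 and 56.4 against 15.0 and 25.5. NRGN, a calmodulin-binding protein, had 27.9 and 34.4 CPM against 11.5 and 4.60. Their log2 fold changes were 1.44 (SE 0.22), 1.47 (SE 0.30) and 1.95 (SE 0.47), and they did not pass.

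**Figure D2:**
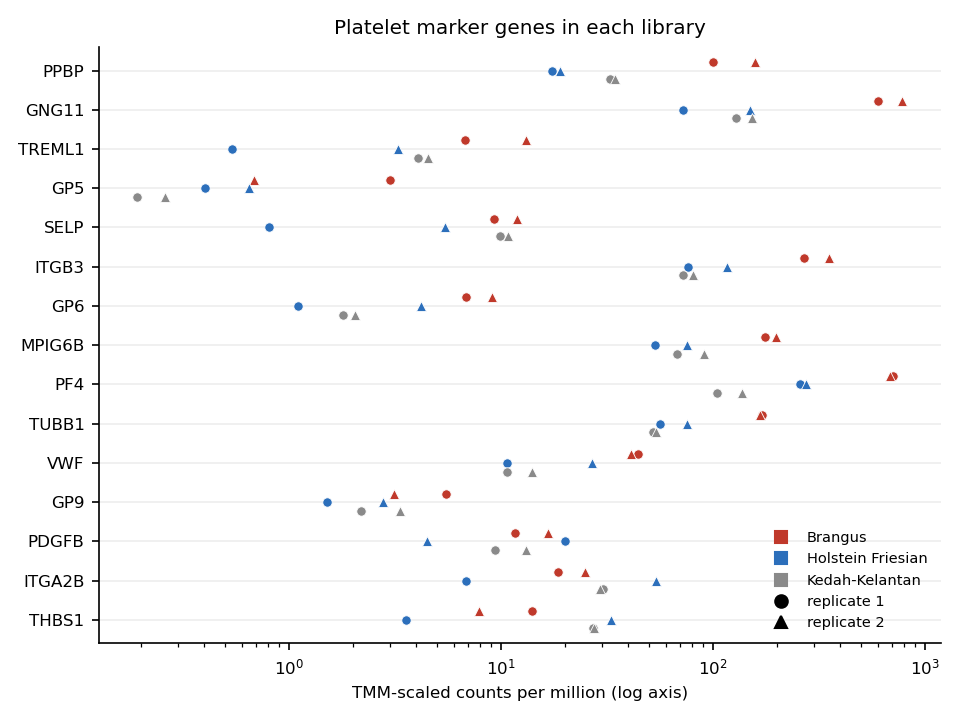
TMM-scaled CPM (log axis) of the 15 tested platelet markers, with 1 point per library (circle, replicate 1; triangle, replicate 2), ordered by log2 fold change. In the upper 12 genes both Brangus points lie to the right of both Holstein Friesian points, and in PDGFB, ITGA2B and THBS1 the breeds overlap.

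Red cell transcripts were less uniform. Of 15 tested erythroid markers, 7 were separated higher and 1 lower, with a median of 0.64, and 5 rather than 7 were higher when the globins were left out. The median was 0.48 with Holstein Friesian replicate 1 left out and 1.303 with replicate 2 left out. HBB, the beta chain of haemoglobin, had 438 and 634 CPM in Brangus and 95.0 and 228 in Holstein Friesian, or 1.73 (SE 0.46, edgeR adjusted p = 0.645), and was concordant. BCL2L1, which protects platelets and red cell precursors from apoptosis, was named from the BCL2 family list and not as an erythroid marker. It had 43.3 and 47.3 CPM against 19.8 and 21.5, or 1.13 (SE 0.18, edgeR adjusted p = 0.470). Of 21 tested members of that family, 4 were separated higher and 1 lower, with a median of -0.03. The higher share was near the 18.4% over all genes tested. In the separate haem and iron list, 4 of 23 were separated higher and 4 lower, near the shares over all genes tested (18.4% and 15.9%). FECH, the last enzyme of haem synthesis, was among the lower ones, at 12.9 and 11.99 CPM against 21.7 and 22.5, or -0.83 (SE 0.19, adjusted p = 0.641).

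Cytosolic ribosomal protein genes, which supply the protein part of the ribosome, were higher in Brangus almost throughout. Of 83 tested, 80 were separated higher and 0 lower under each of 4 scalings, with a median log2 fold change of 0.86, and 19 were concordant. None passed edgeR's test and DESeq2 called 4. The corresponding shares over all genes were 18.4% separated higher, 0.805% concordant and higher, and 1.10% called higher by DESeq2. The summed level of the ribosomal protein genes was 175551 and 179829 CPM in Brangus and 122247 and 70899 in Holstein Friesian. Both Brangus sums were above both Holstein Friesian sums, but the Holstein Friesian libraries were also far from each other, and the median was 1.29 without replicate 1 and 0.49 without replicate 2. Kedah-Kelantan, at 68959 and 77435, was below both Brangus libraries and near Holstein Friesian replicate 2.

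RPS3A had the highest mean FPKM, a level per gene length, of the genes that were separated and at least 2-fold higher. It had 8086 and 7436 CPM in Brangus and 4556 and 1592 in Holstein Friesian, or 1.34 (SE 0.49, edgeR adjusted p = 0.649). RPL3, with closer Holstein Friesian values, had 2798 and 2724 CPM against 1606 and 1362, or 0.90 (SE 0.19, adjusted p = 0.641), and RPL28 had 683 and 677 against 416 and 354, or 0.82 (SE 0.18, adjusted p = 0.641). Of the 8 genes with the highest FPKM in this class, all were ribosomal protein genes. The 3 members that overlapped were RPL15, RPL3L and RPL7L1. RPL15 had 1233 and 1408 CPM in Brangus and 1463 and 803 in Holstein Friesian. LOC101903301, described as similar to the RPL15 protein, had 674 and 429.5 CPM against 8.79 and 116, and the sum of both genes was 1908 and 1838 against 1472 and 919, which did not overlap.

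Genes of the mitochondrial genome were also mostly higher. These 13 genes encode subunits of the respiratory chain, and 12 were separated higher and 0 lower, with a median of 0.70 (0.95 with Holstein Friesian replicate 1 left out and 0.63 with replicate 2 left out). Of them, 5 were concordant and none passed edgeR's test, while DESeq2 called 5. Over all genes 18.4% were separated higher, 0.805% were concordant and higher, and DESeq2 called 1.10% higher. ND1, a subunit of complex I, had 2892 and 3641 CPM in Brangus against 1631 and 1688, or 0.98 (SE 0.20, edgeR adjusted p = 0.641). ND3, of the same complex, had 1213 and 1609 CPM against 692 and 427, or 1.34 (SE 0.31). ATP6, a part of ATP synthase, had 3214 and 3981 CPM against 2146 and 1828, or 0.86 (SE 0.22), and CYTB, of complex III, had 2855 and 3290.0 against 1898 and 1778, or 0.74 (SE 0.19). ND6 was the member that overlapped, at 55.1 and 62.0 CPM against 66.8 and 25.1.

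The nuclear genes of the same chain had a smaller median. Of 82 tested, 47 were separated higher and 1 (SDHA) lower, beside 18.4% and 15.9% of all genes tested. The median of 0.28 was 0.49 with Holstein Friesian replicate 1 left out and 0.10 with replicate 2 left out, and 0 were concordant. ATP5IF1, which inhibits the ATP synthase when it runs backwards, had 126 and 137 CPM against 81.2 and 63.8, or 0.86 (SE 0.22). Mitochondrial ribosomal proteins had 33 of 78 separated higher and 1 lower. Their median of 0.31 was 0.63 against Holstein Friesian replicate 2 and 0.03 against replicate 1, so it was near 0 against one of the libraries. MRPL24 had 21.9 and 21.6 CPM against 11.2 and 11.2. Translation initiation factors had 21 of 51 higher and 9 lower (median 0.20, or 0.29 and 0.12 with replicates 1 and 2 left out). Their share of lower members was near the 15.9% over all genes tested. EIF1B, a start-codon factor, had 186 and 221 CPM against 98.8 and 114, or 0.94 (SE 0.20, edgeR adjusted p = 0.641), and EIF3M, a subunit of the factor that binds the small ribosomal subunit, had 356 and 367 against 233 and 162, or 0.88 (SE 0.22, adjusted p = 0.645). These were the 2 concordant members.

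**Figure D3:**
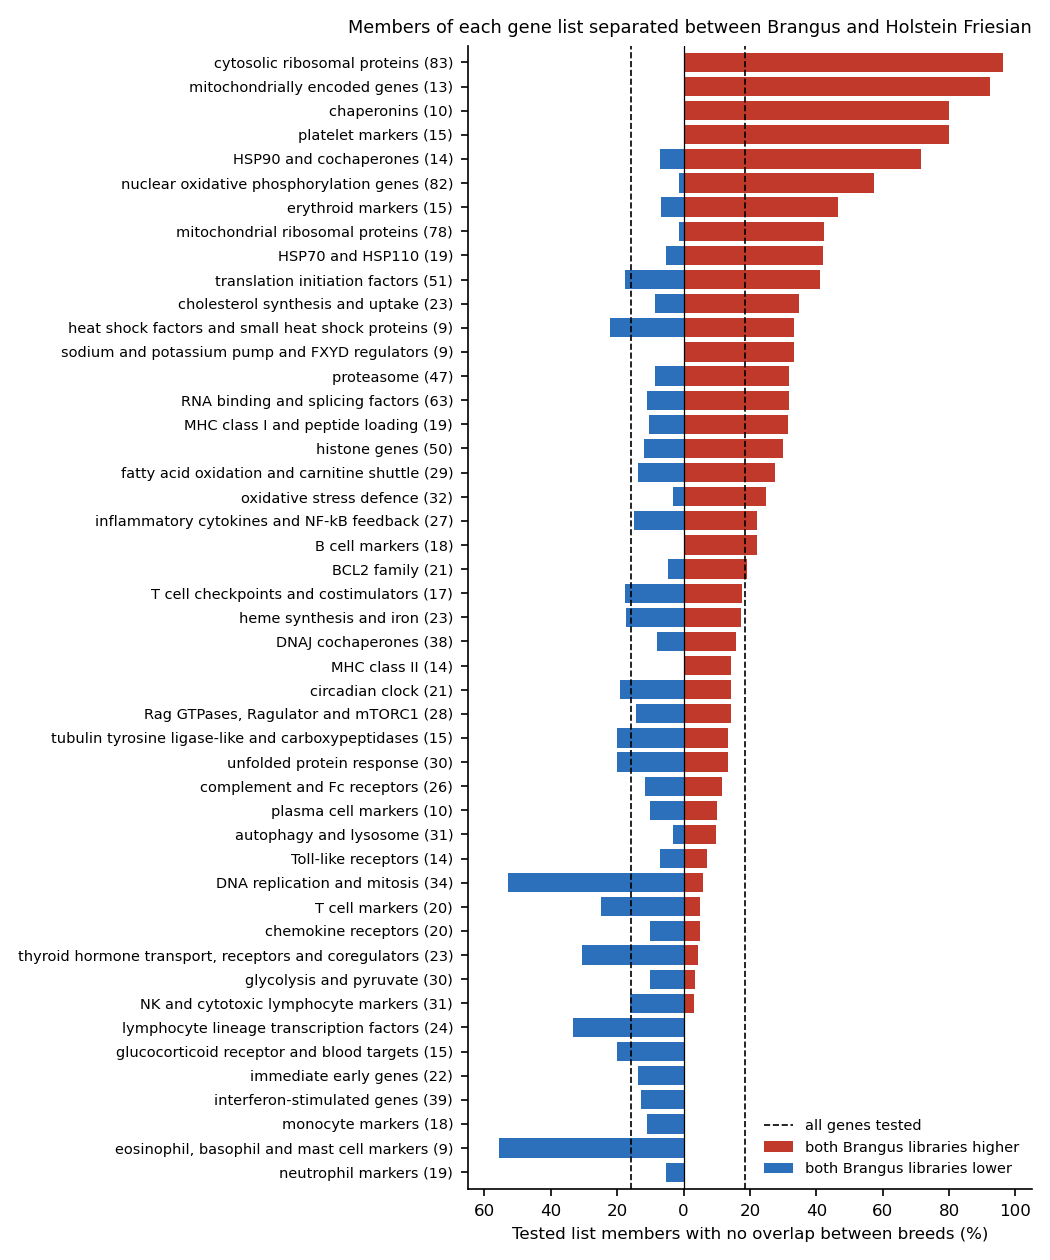
For each gene list with at least 9 tested members (number in brackets), bars give the percentage of tested members whose Brangus libraries were both higher (right, red) or both lower (left, blue) than both Holstein Friesian libraries. Dashed lines mark 18.4% and 15.9% over all genes tested; the ribosomal (80 of 83), mitochondrially encoded (12 of 13), chaperonin (8 of 10) and platelet (12 of 15) lists reach furthest to the right.

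Cytotoxic lymphocyte genes were mixed. Of 31 tested, 1 was separated higher and 5 lower, a share of lower members near the 15.9% over all genes tested. The median of -0.19 was 0.18 with Holstein Friesian replicate 1 left out and -0.67 with replicate 2 left out. GZMB (chromosome 21, 34741243 to 34743324), a granule protease that triggers apoptosis in target cells, had 20.7 and 21.8 CPM in Brangus against 76.7 and 81.8 in Holstein Friesian, or -1.90 (SE 0.20, edgeR adjusted p = 0.340). Its replicates agreed closely in both breeds, with means of 21.2 ± 0.809 and 79.2 ± 3.61 CPM (SD, n = 2 each), and it was concordant. GZMA, PRF1 and GNLY, further granule genes, overlapped between the breeds. GZMA had 40.2 and 75.0 CPM in Brangus against 176 and 28.4, PRF1 (perforin) 46.9 and 61.2 against 136 and 54.4, and GNLY (granulysin) 41.5 and 68.0 against 161 and 48.2. In these 3 genes Holstein Friesian replicate 1 was above both Brangus libraries, while replicate 2 lay between them for PRF1 and GNLY and below both for GZMA.

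LOC104968634, described as the antimicrobial peptide NK-lysin and located near GNLY on chromosome 11, was separated higher. It had 64.8 and 37.4 CPM in Brangus against 7.62 and 5.97, or 2.91 (SE 0.34, edgeR adjusted p = 0.424). How reads were assigned between this gene and GNLY, which overlapped, was not tested, so its level alone is uncertain. IL32, a cytokine of activated lymphocytes, had 223 and 176 CPM against 0 and 70.0, and 4.54 and 5.88 in Kedah-Kelantan. The Holstein Friesian value of IL32 rests on 1 library, so its fitted fold change is not interpreted. KLRD1, CD244, FASLG and GZMK were the other separated members, all lower, with log2 fold changes of -0.54 to -1.70.

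T cell markers differed little. Of 20 tested, 1 was separated higher and 5 lower, beside 18.4% and 15.9% of all genes tested. The median was -0.16 (-0.26 in both fits with 1 Holstein Friesian library). CD3E, part of the T cell receptor complex, had 552 and 598 CPM in Brangus and 654 and 555 in Holstein Friesian, which overlapped. ZAP70, a kinase downstream of the receptor, had 146 and 192 CPM against 390.1 and 224, or -0.86 (SE 0.31, edgeR adjusted p = 0.647). Of 24 lymphocyte lineage transcription factors, 8 were separated lower and 0 higher (median -0.28, or -0.27 and -0.19 with replicates 1 and 2 left out). Among them RUNX3, which sets cytotoxic fate, had 114 and 131 CPM against 179 and 147, or -0.41 (SE 0.18).

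B cell and myeloid markers depended on which Holstein Friesian library was used. Of 18 B cell markers, 4 were separated higher and 0 lower, a share of higher members near the 18.4% over all genes tested. Their median of 0.85 was 3.67 without replicate 1 and -0.08 without replicate 2. MS4A1, the B cell antigen CD20, had 1132 and 986 CPM in Brangus against 1086 and 45.5 in Holstein Friesian. Monocyte markers had a median of -1.12, which was -2.00 without replicate 1 and 1.17 without replicate 2, and neutrophil markers had -0.40, which was -1.30 and 1.89. CSF1R, the receptor that maintains monocytes, had 65.8 and 46.1 CPM against 16.9 and 344, and CXCR2, a neutrophil chemokine receptor, had 297 and 393 against 50.3 and 868. Brangus lay between the Holstein Friesian libraries for summed monocyte and neutrophil markers and near or above replicate 1 for B cell markers. The direction between the breeds was thus opposite against replicates 1 and 2 for the myeloid lists, and for B cells the difference rests on replicate 2.

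Eosinophil, basophil and mast cell markers were low in 3 of the 4 libraries. Their summed level was 56.5 and 48.0 CPM in Brangus and 56.2 and 1365 in Holstein Friesian, with 465 and 488 in Kedah-Kelantan. Of 9 tested, 5 were separated lower and 0 higher, beside 15.9% and 18.4% of all genes tested. The median of -3.59 was -4.57 with replicate 1 left out and -0.74 with replicate 2 left out. ALOX15, a lipoxygenase abundant in eosinophils, had 0.129 and 0 CPM against 0.235 and 614, and IL5RA, the receptor for the eosinophil growth factor interleukin-5, had 18.9 and 13.1 against 26.0 and 165. CCR3, the eotaxin receptor, overlapped, at 18.1 and 22.4 CPM against 7.42 and 481. The lower position of Brangus in this group thus rests on Holstein Friesian replicate 2.

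**Figure D4:**
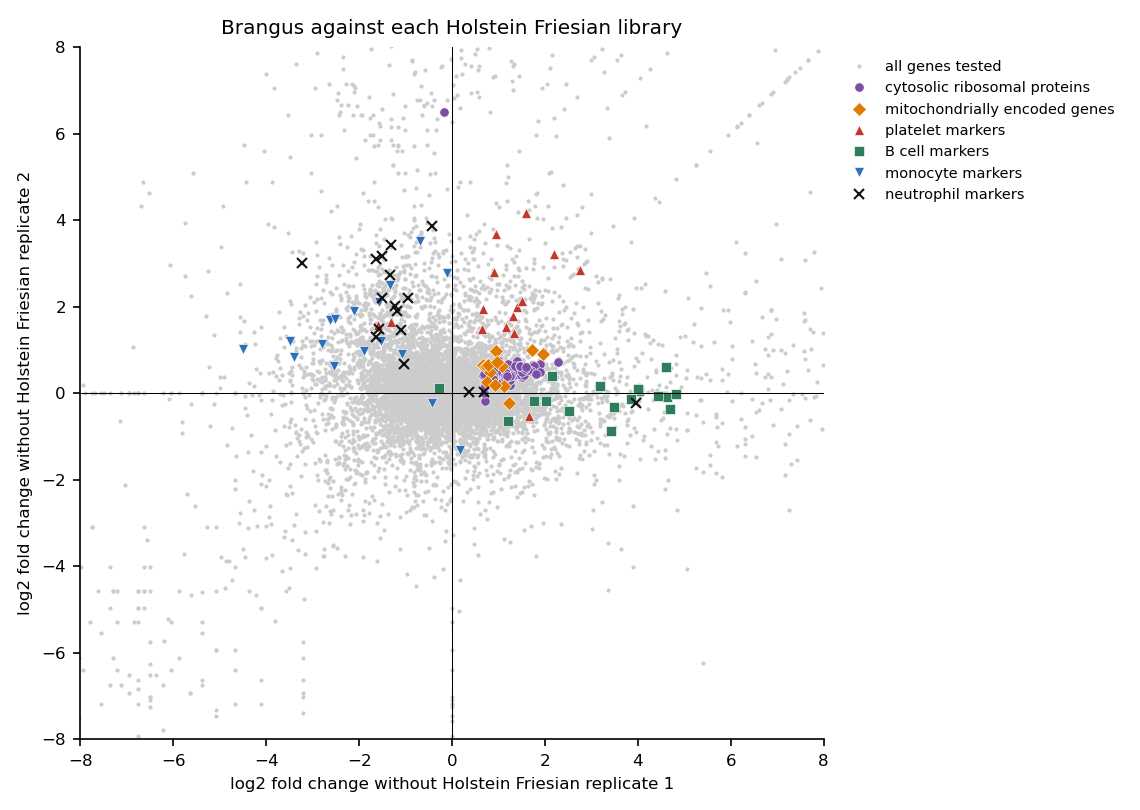
Each point is a gene, placed by its Brangus against Holstein Friesian log2 fold change without Holstein Friesian replicate 1 (x) and without replicate 2 (y). Platelet, ribosomal and mitochondrially encoded genes lie mostly at the upper right, B cell markers spread along x near 0 on y (medians 3.67 and -0.08), and monocyte and neutrophil markers lie mostly in the upper left; 138 genes fall outside the axes, 3 of them marked.

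ITGAM, the integrin CD11b of granulocytes and monocytes, had 109 and 97.2 CPM in Brangus against 210.3 and 334, or -1.40 (SE 0.26, edgeR adjusted p = 0.641), and was concordant. RHEX, a regulator of erythropoietin signalling, had 31.6 and 37.6 CPM against 75.4 and 387, or -2.74 (SE 0.77), and was also concordant. FN1, fibronectin, which was chosen after its values were seen, had 2.997 and 4.60 CPM against 18.7 and 198, or -4.83 (SE 1.17, adjusted p = 0.641). In the last 2 genes both Holstein Friesian libraries were above Brangus but differed several-fold from each other. The summed monocyte markers given above moved with Holstein Friesian replicate 2, and their part in these differences was not tested.

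IDO1 and KMO, enzymes on either side of kynurenine, were separated in opposite directions. They were named by different rules, and no list of this pathway was examined. IDO1, which starts tryptophan breakdown and is induced by interferon gamma, had 269.6 and 611 CPM in Brangus and 1350.0 and 2246 in Holstein Friesian, or -2.03 (SE 0.47, edgeR adjusted p = 0.641). KMO, which hydroxylates kynurenine, had 8.86 and 16.7 CPM against 1.11 and 0.874, or 3.68 (SE 0.47, adjusted p = 0.452). Neither overlapped between the breeds, and KMO was concordant while IDO1 was not, with an adjusted p of 0.0894 without Holstein Friesian replicate 2. Kedah-Kelantan had 1061 and 1110.0 CPM of IDO1 and 6.50 and 5.53 of KMO, between the other breeds for both.

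Interferon-stimulated genes showed 0 of 39 separated higher and 5 lower, a share of lower members below the 15.9% over all genes tested. Their median of -0.64 was -1.24 with Holstein Friesian replicate 1 left out and 0.21 with replicate 2 left out. IFITM1, a membrane protein that blocks viral entry, was the concordant member. It had 271 and 375 CPM in Brangus and 675 and 670.0 in Holstein Friesian, or -1.06 (SE 0.22, edgeR adjusted p = 0.641). OAS1X, ZBP1 and TRIM25, which sense or signal viral nucleic acid, were separated lower, at -2.39 (SE 0.80), -1.79 (SE 0.75) and -0.98 (SE 0.36), and did not pass. IFIT2, which binds viral RNA, overlapped, with 308 and 499 CPM in Brangus between 79.9 and 1267 in Holstein Friesian. LOC101903126, described as an interferon-induced very large GTPase and not on the list, had 71.0 and 55.0 CPM against 206 and 312, or -2.04 (SE 0.28, adjusted p = 0.452), and was concordant.

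Genes of DNA replication and mitosis were lower in Brangus more often than higher. Of 34 tested, 18 were separated lower and 2 higher, beside 15.9% and 18.4% of all genes tested. The median was -0.44, and it was similar without either Holstein Friesian library (-0.50 without replicate 1 and -0.43 without replicate 2). None was concordant. MKI67, the proliferation antigen, had 26.6 and 35.3 CPM against 52.6 and 72.1, or -1.01 (SE 0.29, edgeR adjusted p = 0.645). TOP2A, the topoisomerase of dividing cells, had 22.01 and 25.7 CPM against 38.5 and 35.4, or -0.63 (SE 0.19, adjusted p = 0.645). The mitotic kinase gene AURKB and its partner CDCA8 had -1.31 (SE 0.42) and -1.22 (SE 0.37). TYMS and MCM7, which act in nucleotide supply and replication licensing, were the 2 higher members, at 0.74 (SE 0.34) and 0.31 (SE 0.19).

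Chaperones refold proteins, and many respond to heat. Their lists differed in how many members were separated, beside 18.4% higher and 15.9% lower over all genes tested. Of the HSP90 group 10 of 14 were separated higher and 1 (UNC45A) lower, with a median of 0.28 that was 0.25 and 0.27 without replicates 1 and 2. HSP90AB1, the constitutive HSP90, had 1490.0 and 1361 CPM in Brangus and 1028 and 769.6 in Holstein Friesian, or 0.67 (SE 0.21, edgeR adjusted p = 0.645). Of 10 chaperonin genes 8 were separated higher and 0 lower, and under DESeq2 size factors or upper quartile scaling 7 were higher. Their median of 0.35 was 0.65 with replicate 1 left out and 0.11 with replicate 2 left out. HSPE1, the mitochondrial co-chaperonin, had 81.3 and 90.5 CPM against 60.6 and 40.8, or 0.76 (SE 0.25). Among HSP70 genes, 8 of 19 were separated higher and 1 lower (median 0.18, or 0.24 and 0.23 with replicates 1 and 2 left out). HSPA8, the constitutive member, had 2223 and 2056 CPM against 1547 and 1372, or 0.55 (SE 0.18, adjusted p = 0.645), whereas HSPA1A, the classical heat-inducible member, overlapped at 164 and 172 against 111 and 208. Of 38 DNAJ cochaperones 6 were separated higher and 3 lower, a share of higher members below that over all genes, and the median of 0.16 was 0.32 and -0.05 with replicates 1 and 2 left out. Of 9 heat shock factors and small heat shock proteins 3 were separated higher and 2 lower (median -0.15, or -0.28 and 0.06). No member of these 5 lists passed edgeR's test or was concordant.

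The title of the series asks about deiodinases, enzymes that activate or inactivate thyroid hormone. DIO1 and DIO3 had 0 counts in all 4 libraries, and DIO2 overlapped, at 0 and 0.387 CPM in Brangus and 0.336 and 5.25 in Holstein Friesian (edgeR adjusted p = 0.662). Among 23 tested genes of thyroid hormone transport, receptors and coregulators, 1 was separated higher and 7 lower. The shares over all genes tested were 18.4% and 15.9%. The list median was -0.31 (-0.60 and -0.16 with replicates 1 and 2 left out). The higher one was SLCO4A1, a thyroid hormone transporter, at 14.7 and 16.5 CPM against 8.12 and 9.92, or 0.79 (SE 0.24, adjusted p = 0.645). The lower ones were mainly general coregulators, such as NCOA1, with 37.9 and 49.3 CPM against 58.1 and 104, or -0.89 (SE 0.32, adjusted p = 0.647).

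Several single genes stood apart with close replicates. FXYD4 (chromosome 28, 13781054 to 13795326), a modulator of the sodium and potassium pump, had 319.7 and 319 CPM in Brangus and 40.8 and 61.0 in Holstein Friesian, or 2.65 (SE 0.26, edgeR adjusted p = 0.302). Of the 9 tested genes of the pump and its modulators, 3 were separated higher, beside 18.4% of all genes tested. FXYD4 was the concordant one. S100A1, a calcium-binding protein, had 79.5 and 75.3 CPM against 7.11 and 11.4, or 3.06 (SE 0.43, adjusted p = 0.452). PDLIM1, a cytoskeletal adaptor, had 125 and 122.7 CPM against 26.1 and 38.2, or 1.94 (SE 0.24), and NSG1, an endosomal protein, had 38.9 and 35.0 against 6.95 and 9.12, or 2.202 (SE 0.25). For FXYD4, PDLIM1 and NSG1, Kedah-Kelantan was near Holstein Friesian, at 45.7 and 54.4 CPM for FXYD4, 38.2 and 45.0 for PDLIM1 and 9.53 and 10.6 for NSG1. On the lower side, MTARC2, a molybdenum enzyme of mitochondria, had 6.12 and 5.97 CPM against 21.5 and 23.7, or -1.90 (SE 0.25, adjusted p = 0.452). SEMA4F, a semaphorin, had 3.08 and 2.41 CPM against 11.5 and 11.8, or -2.08 (SE 0.32), and TBC1D2B, a regulator of Rab GTPases, had 39.1 and 51.0 against 118 and 97.8, or -1.26 (SE 0.21). All 7 were concordant. Of the lower genes, MTARC2 in Kedah-Kelantan was near Brangus, at 6.66 and 8.09 CPM. SEMA4F (7.50 and 7.15) and TBC1D2B (62.2 and 61.4) lay between the other breeds there. S100A1, at 3.80 and 7.70 CPM in Kedah-Kelantan, was nearer Holstein Friesian.

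**Figure D5:**
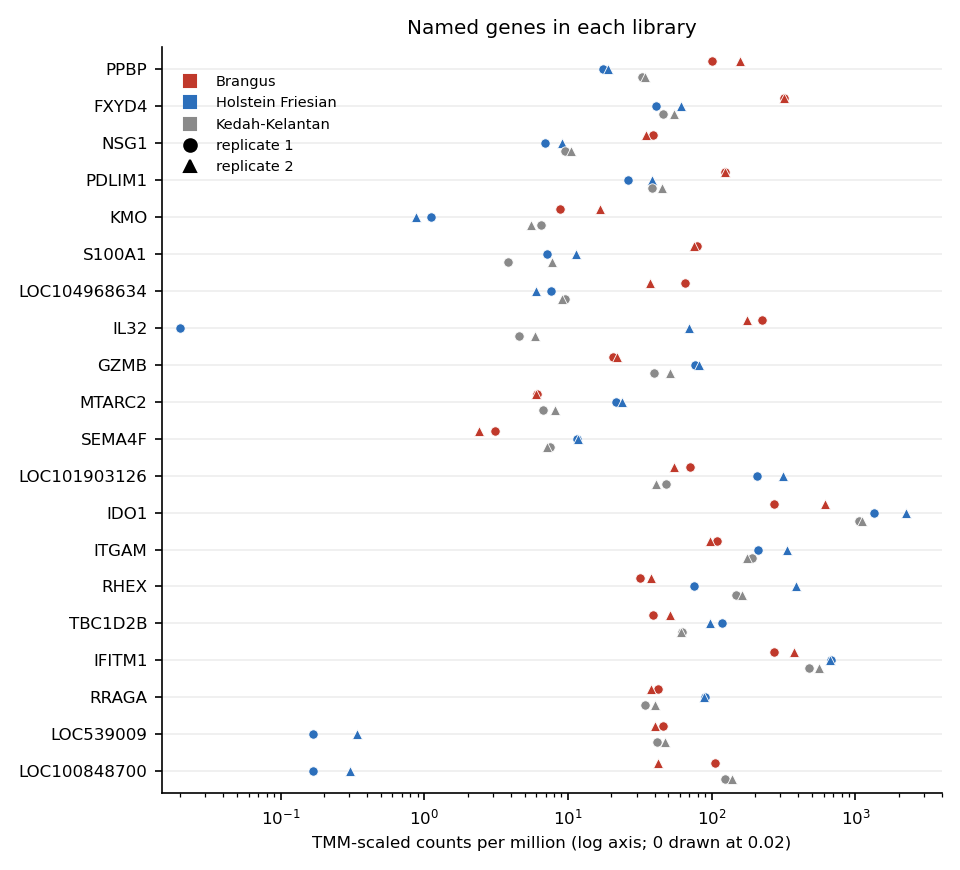
TMM-scaled CPM (log axis, with 0 drawn at 0.02) of 20 genes described in the text, with 1 point per library. From PPBP to IL32 both Brangus points lie right of both Holstein Friesian points, from GZMB to RRAGA they lie left, and LOC539009 and LOC100848700 lie right again, with Kedah-Kelantan beside Brangus in the last 2.

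Further differences fell on gene copies and on genes counted in 1 breed only, where the value depends on how reads were assigned. LOC100848700, described as ABCC4, had 104.8 and 42.1 CPM in Brangus, 0.168 and 0.304 in Holstein Friesian and 125 and 139 in Kedah-Kelantan. The 44 genes with this description summed to 446 and 366 CPM in Brangus and 194 and 738 in Holstein Friesian, which overlapped. The MHC class I gene JSP.1 had 91.7 and 2967 CPM in Brangus against 70.4 and 69.4, so its separated values rest on 1 Brangus library. MHC genes are highly polymorphic, and how alleles that differ from the reference affected the counts was not tested.

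Genes with 0 counts in both libraries of one breed and at least 10 in both of the other numbered 18 on the higher and 43 on the lower side, of 21698 in the table. Brangus libraries had smaller totals and fewer genes with any count, 13713 and 13260 against 14199 and 14683 in Holstein Friesian. How far this contributed to the larger number on the lower side was not tested. SCN3A, a voltage-gated sodium channel gene, had 696 and 201 counts in Brangus and 0 in both Holstein Friesian libraries. LOC617224, described as a probable palmitoyltransferase, had 86 and 188 counts against 0 and 0, and 284 and 264 in Kedah-Kelantan. LCN8, a lipocalin, had 71 and 102 counts against 0 and 0. On the lower side SERTAD4 had 0 and 0 counts in Brangus against 82 and 36, and STYK1 had 0 and 0 against 51 and 20. Zero counts were frequent within a breed too. In Brangus 394 genes had at least 10 counts in replicate 1 and 0 in replicate 2 and 312 the reverse, against 168 and 265 in Holstein Friesian and 17 and 15 in Kedah-Kelantan, so no fold is given for genes at 0 in either breed.

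The direction of separated genes varied with expression level. When the genes tested were cut into 5 equal groups by mean FPKM, 28.7% of the highest group, from 25.6 upwards, were separated higher and 10.6% lower. In the lowest group the shares were 15.8% and 18.4%. Across chromosomes, numbered by matching gene symbols to a reference annotation, the share separated higher ran from 12.6% on chromosome 22 to 24.3% on chromosome 27. Ribosomal and mitochondrially encoded genes given above are among the most highly expressed, and how much they contribute to the highest group was not tested.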

How the data were processed

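Whole-blood RNA was sequenced, per the labels, after extraction with PrimeZOL and a required RNA integrity number above 7. Per the submitters' processing notes, the tools were HISAT2 2.2.1, featureCounts 2.0.1, Trimmomatic 0.39, FastQC 0.11.9 and DESeq2 1.38.0, with the build ARS-UCD1.2. Whether counting used strand, and how it treated multi-mapping reads, is not given in the sources used here. Counts were deposited as whole reads per gene, without normalization. The FPKM values deposited by the authors are those counts divided by gene length and library total (within 0.0412% over 2466 genes) and were used only for levels between genes. Positions are the authors' own and are not tied to a build here. Chromosome numbers were assigned to the deposited sequence entries through 16311 gene symbols shared with a reference annotation of another assembly. Of these symbols, 99.79% fell on the same chromosome.

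Counts were scaled by TMM, filtered with filterByExpr and fitted in edgeR 4.0.16 (R 4.3.3) with breed as the only term over all 6 libraries, with robust quasi-likelihood estimation and 3 residual degrees of freedom. P-values were adjusted over the 13455 genes tested. SE was derived from the F statistic, as the log2 fold change over its square root. The biological coefficient of variation was 0.431. An exact permutation test of 2 against 2 libraries cannot go below p = 0.333, so none is given. Counts for this comparison were simulated over 13162 genes, with the same dispersion for a gene in every breed. On them edgeR recovered 33 of 100 genes changed 4-fold and 78 of 100 changed 16-fold and called 10 unchanged genes. DESeq2 1.42.0 recovered 76 and 93 and called 114.

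The comparison and the 48 gene lists were chosen with earlier results of these data known. Genes were named by rule: those passing; non-overlapping genes of smallest p, to 12 per direction; the 8 of highest FPKM per direction among non-overlapping genes changed at least 2-fold; up to 4 of smallest p per list, and defining members of cell type lists; the 6 largest concordant changes per direction; and DIO1, DIO2, DIO3, RRAGA, LOC539009, TTLL1, FXYD4 and IL32. Other list members and gene copies were named after their values were seen.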

Additional observations from a re-analysis of the deposited data

How the results depend on the processing

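The count of genes passing was 1 with upper quartile scaling, without a low-count filter and with globins left out, and LOC539009 kept its direction throughout. It was 0 with DESeq2 size factors in edgeR, with a mean count of at least 50, with only the 4 libraries and with the replicate block, and 313 with DESeq2. Counting only genes that also did not overlap gave the same numbers, except 304 with DESeq2. Leaving out 1 library at a time gave 0 to 4395: 0 without any Brangus or Kedah-Kelantan library, 4395 when Holstein Friesian replicate 1 was left out and 849 for replicate 2. The edgeR adjusted p of LOC539009 was 0.0504 with DESeq2 size factors, 0.0540 with a mean count of at least 50, 0.298 with the block, 0.377 and 0.520 without Brangus replicates 1 and 2, and 0.566 and 0.554 without Kedah-Kelantan replicates 1 and 2. The cause was not tested. The 174 concordant genes became 307 with DESeq2 and 132 to 1269 when a further library was left out, with 1269 without Brangus replicate 1 and 969 without replicate 2, and 143 to 228 otherwise. Genes not overlapping numbered 4530 to 4653 over the scalings, and DESeq2 size factors gave 2304 higher and 2349 lower. Same-numbered libraries of these breeds deviated together with a correlation of 0.0541. With 2 libraries per breed this cannot show whether the numbers pair them. With the replicate block the concordant genes were 168. The genes named in the text whose log2 fold change turned sign were these, and each overlapped between the breeds. Leaving out Holstein Friesian replicate 1 gave the lowest and replicate 2 the highest value for CCR3 (-4.57 to 1.41), CSF1R (-2.63 to 1.69), CXCR2 (-1.34 to 2.74), IFIT2 (-1.66 to 2.30), ITGA2B (-1.31 to 1.63), THBS1 (-1.60 to 1.57) and HSPA1A (-0.31 to 0.56). The reverse held for MS4A1 (-0.0765 to 4.54), ND6 (-0.23 to 1.22), PDGFB (-0.54 to 1.65), RPL15 (-0.19 to 0.71), CD3E (-0.23 to 0.0437), GNLY (-1.59 to 0.18) and GZMA (-1.65 to 1.013). RPL3L ranged from -5.72 without Brangus replicate 1 to 6.50 without Holstein Friesian replicate 2, and CXCR2 had 0.20 with the replicate block. Over the scalings, separated higher genes ranged from 41 to 47 in the nuclear respiratory list and 2 to 4 in the B cell list, and separated lower initiation factors from 5 to 9. With 2 libraries per breed and a BCV of 0.431, edgeR recovered 33 of 100 genes changed 4-fold and 78 of 100 changed 16-fold on simulated counts. Smaller changes were not simulated. The simulation gave each gene the same spread in every breed, whereas the Holstein Friesian replicates differed more than the others. Recovery in the real libraries may therefore differ.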
